A study of Mus musculus with 9 samples.

Results

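The genes described here are those encoded by the mitochondrial genome itself. They were chosen by name, as every gene of the deposited count table whose symbol begins with mt-, which gave 37 of 54232 genes. Of the 37 genes, 13 encode proteins of the respiratory chain, 2 encode ribosomal RNAs and 22 encode tRNAs. Poly(A) RNA was sequenced from naïve mESCs and from primed mEpiSCs derived from the same cells, with 2 libraries for each state at passage 5 (P5) and at passage 15 (P15), and from mouse embryonic fibroblasts (MEFs), with 1 library. All mESCs and mEpiSCs belonged to 1 line of C57 and CBA parentage, OG2, which carries GFP under the distal *Oct4* promoter, so the replicates sample 1 genotype. Naïve mESCs were kept in serum with LIF, and primed mEpiSCs in medium with Fgf2 and ActivinA, both on feeder MEFs inactivated by mitomycin C. The study calls the 2 libraries of a group biological repeats. Whether these came from separate cultures is not given in the sources used here, so the p-values measure the spread between these libraries, which may be partly technical.

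The mouse mitochondrial genome is a small circle that lacks introns. It is read from both strands as long precursors, from which the tRNAs are cut out like punctuation marks, releasing the mRNAs and rRNAs between them. Its mRNAs encode subunits of complexes I, III, IV and V of oxidative phosphorylation, which are completed by many subunits from nuclear genes. Naïve and primed pluripotent cells are known to differ in how far they rely on respiration, which makes these transcripts of interest at this transition. Mitochondrial mRNAs carry short poly(A) tails, the rRNAs carry very short ones and mature tRNAs carry none, so capture by poly(T) favours the mRNAs and the values below are not the make-up of all mitochondrial RNA.

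Reads from the mitochondrial genome are hard to assign for reasons that show in the sequences. On GRCm38 (GENCODE M21), a stretch of chromosome 1, chr1:24611535-24616197 on the minus strand, holds 7 pseudogenes that are copies of mitochondrial genes. Over the aligned bases, 5 of these are identical to the mitochondrial gene. The first 60 bases of *mt-Co2* (chrM:7013-7072, plus strand) and of its copy *Gm28661* (chr1:24615506-24615565, minus strand) are shown because the copy matches *mt-Co2* at every aligned base. A pair of stretches of *mt-Nd3* (chrM:9459-9491) and *Gm28438* (chr1:24613087-24613119, minus strand) are shown with their single difference in capitals, which is T3C with positions counted from 1 at the 5′ end of the gene. All sequences are from the GENCODE M21 transcripts and run 5′ to 3′.
mt-Co2: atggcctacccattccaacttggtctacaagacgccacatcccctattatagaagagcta
Gm28661: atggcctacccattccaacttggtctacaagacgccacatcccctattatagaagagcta
mt-Nd3: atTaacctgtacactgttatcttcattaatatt
Gm28438: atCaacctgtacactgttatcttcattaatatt

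Neighbouring genes also overlap. *mt-Atp8* and *mt-Atp6*, both of complex V, share 43 bases (chrM:7927-7969), which are in capitals in the end of *mt-Atp8* (chrM:7897-7969) and the start of *mt-Atp6* (chrM:7927-7999). *mt-Nd4l* and *mt-Nd4* share 7 bases (chrM:10167-10173), in capitals at the end of *mt-Nd4l* (chrM:10137-10173). On opposite strands, *mt-Nd5* and *mt-Nd6* share 14 bases (chrM:13552-13565). A read in a shared stretch can belong to either gene, and whether reads were counted by strand is not given in the sources used here. The libraries were made with the NEBNext Ultra RNA kit, whose standard protocol is known not to mark strand, and without strand RNA of a gene and RNA opposite to it cannot be told apart.
mt-Atp8: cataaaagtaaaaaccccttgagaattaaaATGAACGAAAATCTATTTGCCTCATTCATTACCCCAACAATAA
mt-Atp6: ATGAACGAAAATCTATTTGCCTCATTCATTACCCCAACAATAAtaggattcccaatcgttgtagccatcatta
mt-Nd4l: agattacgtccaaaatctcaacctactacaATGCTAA

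The last 20 bases of 4 mRNAs are shown for the tails that poly(T) capture depends on. *mt-Co1* ends in a full stop codon, in capitals. In *mt-Cytb*, *mt-Nd4* and *mt-Co3* the annotated gene ends in a single T, in capitals, and the stop codon is known to be completed by the added A tail.
mt-Co1: cctatgtaaaagtaaaaTAA
mt-Cytb: aatactaaaattatatccaT
mt-Nd4: aattacaggcctgacaataT
mt-Co3: catttattgatgaggatctT

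The 8 naïve and primed libraries held 14378051 to 20985136 counts each, against 25646547 for MEFs. Levels are given in CPM, counts scaled to a library of fixed size, with sizes corrected by edgeR's TMM method, and errors are the SD of the 2 libraries of a group. The naïve and primed marker genes followed the labels. In naïve libraries 8 naïve marker genes summed to between 2094 and 2535 CPM, and in primed libraries to between 110.1 and 244 CPM. For 6 primed marker genes the sums were between 337 and 350.3 CPM and between 1026 and 1074 CPM. A set of 4 pluripotent marker genes summed to 1835 to 1851 CPM in naïve and 590 to 596 CPM in primed cells at P5. At P15 these sums were 1940 to 1980 CPM and 1075 to 1103 CPM. All 4 were called lower in primed cells at both passages, beside the shares of all genes given below. RNA of the feeder cells can be present in every naïve and primed library. The summed level of 18 fibroblast markers, all 18 of which had counts in each library, was 12.1% to 12.2% of that in the MEF library in naïve cells at P5 and 5.93% to 6.04% in primed cells at P5. At P15 it was 20.5% to 21.1% in naïve cells and 14.9% to 15.5% in primed cells. Single markers went both ways between the states. In primed cells 3 were higher and 13 lower at P5, and 7 higher and 7 lower at P15 (edgeR, adjusted p under 0.01). Of all genes tested, 31.2% were higher and 31.1% lower at P5, and 28.2% and 28.4% at P15. The order of the sums need not be the order of feeder RNA. The part of feeder RNA in the mitochondrial values was not tested. In such bulk samples, a change in the amount per cell and a change in the make-up of the cells cannot be told apart.

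The 37 mitochondrial genes held 1.95% and 1.59% of all counts in the naïve P5 libraries and 1.96% and 2.09% in the primed P5 libraries. At P15 the shares were 3.0% and 2.80% in naïve cells and 2.21% and 2.47% in primed cells, and in MEFs it was 1.49%. The naïve P15 libraries were thus the highest of the 9 and the MEF library the lowest, and the order of the states was opposite at the passages. The mean share was 1.77% ± 0.257 in naïve and 2.02% ± 0.0911 in primed cells at P5 (SD, n = 2 each) and 2.90% ± 0.148 and 2.34% ± 0.183 at P15 (SD, n = 2 each). Primed minus naïve was 0.252 percentage points at P5 and −0.562 at P15, each with an exact permutation p of 0.333, the smallest that 2 against 2 libraries can give. Over both passages the 4 primed libraries were 0.155 percentage points below the 4 naïve ones (2.18% against 2.33%, two-sided exact permutation test, p = 0.686), and this difference turned to 0.0681 points above when naïve P15 replicate 1 was left out. The Wilson 95% interval of the highest share, in naïve P15 replicate 1, was 2.996% to 3.014%. Such intervals cover counting error only and are far narrower than the gap between the naïve P5 replicates.

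**Figure D1:**
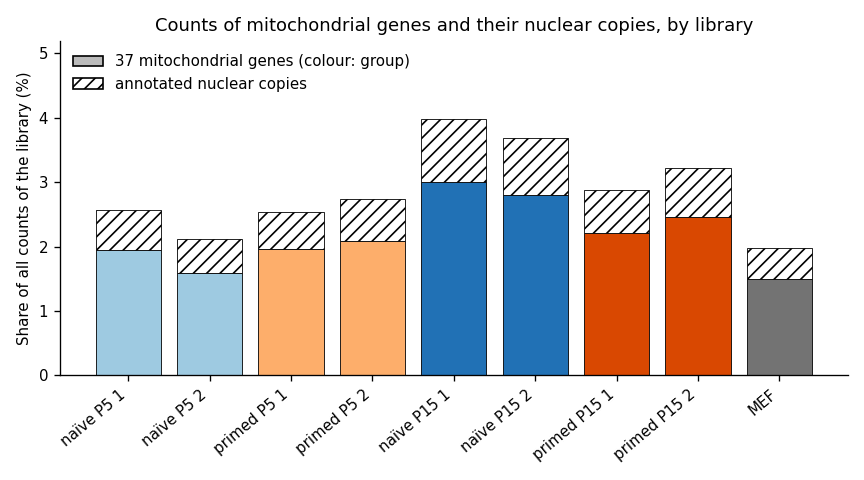
Share of all counts (%, y axis) in each of the 9 libraries (x axis) for the 37 mitochondrial genes (coloured by group) and, hatched above them, for the annotated nuclear copies. The naïve P15 libraries are highest at 3.0% and 2.80%, the MEF library is lowest at 1.49%, and the naïve P5 libraries differ from each other at 1.95% and 1.59%.

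Within the mitochondrial counts, the 13 mRNAs made up 95.3% to 98.2% in each library. The rRNAs made up 4.29% and 4.42% in naïve cells at P5 and 3.14% and 2.95% at P15. In primed cells they were 1.81% and 1.93% at P5 and 1.53% and 1.60% at P15, below every naïve library. The tRNAs stayed between 0.241% and 0.314% in the 9 libraries.

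The copies on chromosome 1 carried counts close to those of the mitochondrial genes. *mt-Co2* had 29862 counts in naïve P5 replicate 1 and its copy *Gm28661* had 29731, and over the 9 libraries the copy held 0.982 to 1.01 times the counts of the gene. *Gm10222*, *Gm28438* and *Gm28437*, the copies of *mt-Nd4l*, *mt-Nd3* and *mt-Co3*, held 0.951 to 1.04, 0.996 to 1.07 and 0.976 to 1.01 times the counts of their genes. The copy of *mt-Atp6*, *Gm10925*, held more counts than its gene in every library, at 1.22 to 1.35 times. *Gm28439* matches 876 of the 1378 bases of *mt-Nd4* and held 0.248 to 0.345 times its counts, and *Gm29216*, a copy of the end of *mt-Co1*, held 0.122 to 0.164 times its counts. On chromosome 2, *Gm13340*, a copy of *mt-Co1* with 97.6% identity, had at most 3023 counts. The ratios near 1 in 4 of the pairs show almost equal counts at sequences that are identical or, for *mt-Nd3*, differ at 1 base. Which locus the reads came from, and whether the same reads were counted at both loci, cannot be read from this table. Sums of a gene and its copy may thus count some reads at both loci. With all copies added, the share of mitochondrial sequence was 2.57% and 2.11% in naïve and 2.55% and 2.73% in primed cells at P5, 3.99% and 3.68% in naïve and 2.87% and 3.23% in primed cells at P15, and 1.97% in MEFs. Copies held 23.1% to 24.9% of that sum in each of the 9 libraries, and adding them left the calls of the 13 mRNAs between states as they were, which is why the changes below are given for the mitochondrial genes alone unless stated.

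**Figure D2:**
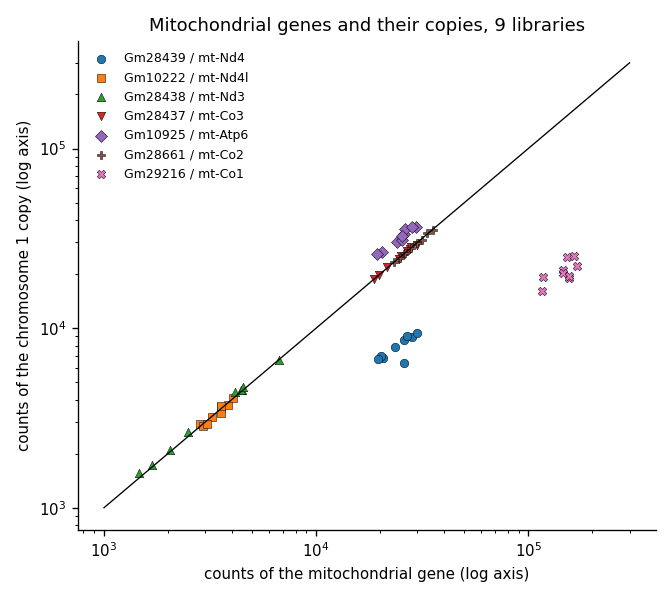
Counts of each chromosome 1 copy (y axis, log) against those of the mitochondrial gene it copies (x axis, log), 1 point per library for 9 libraries, with the line of equal counts. The pairs of mt-Co2, mt-Co3, mt-Nd3 and mt-Nd4l lie on the line, mt-Atp6 lies above it, and mt-Nd4 and mt-Co1, whose copies are partial, lie below it.

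Per length and with copies added, the order of the 13 mRNAs was much alike in the groups. *mt-Co1* was highest in all 5 groups, at 4807 ± 819 CPM per 1000 bases in naïve and 5927 ± 272 in primed cells at P5 and 8239.6 ± 509.7 and 6744 ± 386 at P15 (SD, n = 2 each). With copies added, *mt-Co2*, *mt-Atp6* and *mt-Co3* followed in ranks 2 to 4 in every group. In naïve cells at P5 *mt-Atp6* (4110.2 ± 273) and *mt-Co2* (3835 ± 677) did not differ beyond their SD, while *mt-Nd1*, in rank 5 there, was at 1751 ± 309. *mt-Nd5* and *mt-Nd6* were among the lowest at 609 ± 102 and 560.2 ± 88.7 in naïve cells at P5, which again do not differ beyond their SD. *mt-Nd3* was the mRNA that changed rank most, from rank 7 in naïve cells at P5 and rank 8 at P15 to rank 12 in primed cells at both passages, and it held rank 5 in MEFs. The lowest in every group was *mt-Atp8*, at 30.9 to 60.6 CPM per 1000 bases in the naïve and primed groups and 105 in MEFs. The places of *mt-Co2*, *mt-Atp6* and *mt-Co3* depend on the added copies, since *mt-Nd1* and *mt-Cytb* had no annotated copy. Without copies, mean *mt-Nd1* in naïve cells at P15 was 3269 CPM over 957 bases, against 1931 CPM over 784 bases for *mt-Co3*.

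**Figure D3:**
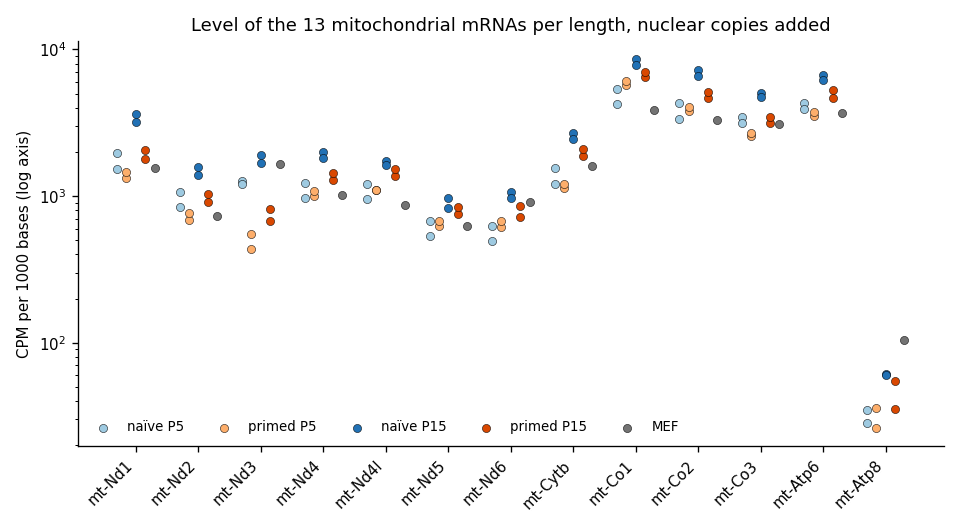
Level of the 13 mitochondrial mRNAs with nuclear copies added, in CPM per 1000 bases (y axis, log), 1 point per library, coloured by group. mt-Co1 is highest in every group, mt-Atp8 is lowest by far, and mt-Nd3 is the gene whose primed points lie below both its naïve and its MEF points.

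The states were then tested against each other within a passage (edgeR, quasi-likelihood), where called means a Benjamini-Hochberg adjusted p below 0.01. At P5, 6 of the 13 mRNAs were lower in primed cells, 2 were higher and 5 did not pass, against 31.1% of all 16482 genes tested called lower and 31.2% called higher. Their median log2 fold change was −0.10, with a range of −1.33 to 0.32 and a median of 0.01 over all genes tested. At P15, 12 of the 13 were lower, 0 were higher and 1 did not pass, against 28.4% of all 15733 genes called lower and 28.2% called higher, with a median of −0.42 and a range of −1.26 to −0.18. Scaled by library size alone, the median of all genes was 0.21 at P5, where 5 mRNAs were then called higher and 2 lower, against 41.3% and 21.5% of all genes, the mRNA median was 0.10 and the uncalled *mt-Nd4* and *mt-Atp8* turned to 0.10 and 0.16. At P15 the median of all genes was then 0.10, and 9 mRNAs were called lower, against 23.1% of all genes, and 0 higher.

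The 13 mRNAs did not vary independently between replicates. All 13 were higher in replicate 2 of the primed P5 and primed P15 libraries and in replicate 1 of the naïve P15 libraries, and 12 of 13 were higher in replicate 1 of the naïve P5 libraries, where the replicates differed by a median of 1.26 times. The spread that enters the test is drawn largely from all genes, so that standard errors here are smaller than the gap between the naïve P5 replicates. At P5 the libraries of the states overlapped for 7 of 13 mRNAs, among them *mt-Nd6* and *mt-Cytb*, which were called, whereas they did not overlap for 84.6% of all genes tested. At P15 they overlapped for 1 of 13, *mt-Nd5*, and did not overlap for 81.9% of all genes tested. By DESeq2's Wald test 3 mRNAs passed at P5 (*mt-Nd3*, *mt-Co3* and *mt-Atp6*, all lower), against 25.3% of all genes called lower and 24.1% higher by it, and 10 at P15, all lower, against 23.6% of all genes.

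**Figure D4:**
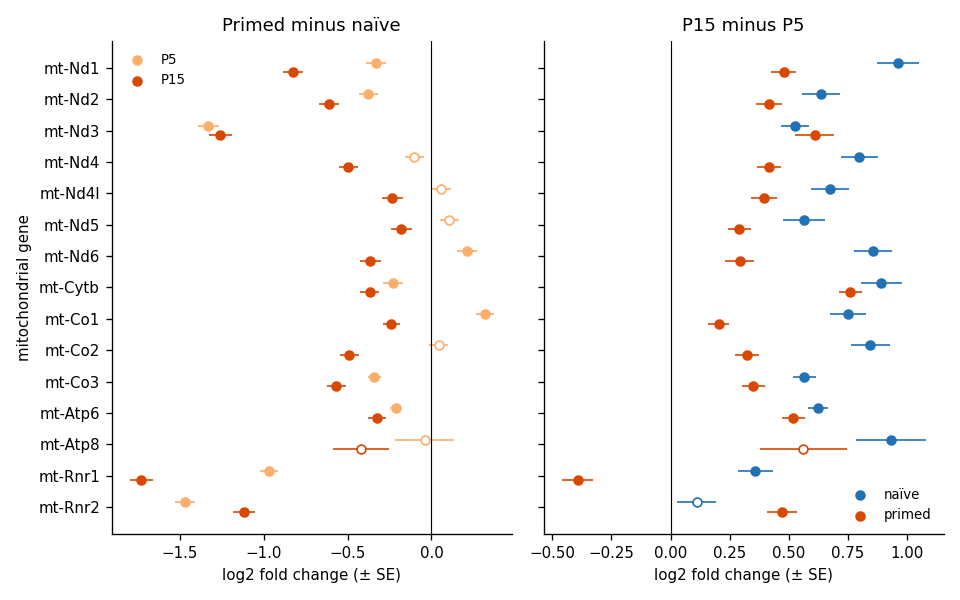
log2 fold changes (x axis, ± SE of the edgeR fit) of the 13 mitochondrial mRNAs and 2 rRNAs (y axis), primed minus naïve at P5 and P15 on the left and P15 minus P5 in naïve and primed cells on the right. Filled points passed an adjusted p of 0.01 and open points did not. mt-Nd3 and both rRNAs lie farthest below 0 between the states, at −0.97 to −1.73, and in naïve cells all 13 mRNAs lie above 0 from P5 to P15.

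Complex I takes electrons from NADH, and 7 of its core subunits are mitochondrially encoded. *mt-Nd3* (chrM:9459-9806), a small subunit of its membrane arm, showed the largest difference of the 13 mRNAs at both passages. It was at 220.2 and 203 CPM in the naïve P5 libraries and at 73.8 and 94.7 CPM in the primed P5 libraries. Its P15 levels were 325 and 287 CPM in naïve and 116 and 139 CPM in primed cells, and in MEFs at 287 CPM. Every primed library was below every naïve library and below MEFs. The log2 fold change was −1.33 (SE 0.06, edgeR adjusted p = 1.35e-17) at P5, 2.52-fold lower, and −1.26 (SE 0.07, edgeR adjusted p = 4.43e-18) at P15, 2.39-fold lower. With the counts of *Gm28438* added it was −1.32 and −1.25, and with each library left out in turn it lay between −1.49 and −1.11 and was called each time.

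*mt-Nd1* (chrM:2751-3707) encodes a subunit near the quinone site of complex I. It was at 1884 and 1467 CPM in naïve and 1270.5 and 1389 CPM in primed cells at P5, and at 3482 and 3056 CPM in naïve and 1715 and 1966 CPM in primed cells at P15. The MEF library was at 1478 CPM. The states did not overlap at either passage, and the naïve P15 libraries stood above all others. The log2 fold change was −0.33 (SE 0.06, edgeR adjusted p = 1.33e-05) at P5, where the call was lost without primed P5 replicate 1 (−0.24), under library size scaling (−0.13), without the low-count filter (−0.34) and by DESeq2 (−0.34), and −0.82 (SE 0.06, edgeR adjusted p = 1.15e-14) at P15.

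*mt-Nd2* (chrM:3914-4951), of the proton-pumping arm, was at 1098 and 879 CPM in naïve and 718 and 801 CPM in primed cells at P5. Its P15 levels were 1631 and 1448 CPM in naïve and 939.6 and 1073 CPM in primed cells, and in MEFs at 761 CPM. Primed cells were lower without overlap at both passages, with log2 fold changes of −0.38 (SE 0.06, edgeR adjusted p = 1.01e-06) and −0.61 (SE 0.06, edgeR adjusted p = 3.77e-11). At P5 the call was lost without primed P5 replicate 1 (−0.27), under library size scaling (−0.17) and by DESeq2 (−0.38).

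*mt-Nd4* (chrM:10167-11544) and *mt-Nd4l* (chrM:9877-10173), which overlap and are known to stay joined in 1 mRNA, also belong to the pumping arm. *mt-Nd4* was at 1278 and 1012 CPM in naïve and 1022 and 1106 CPM in primed cells at P5, and at 2087 and 1904 CPM against 1333 and 1490.1 CPM at P15. *mt-Nd4l* was at 176 and 139.8 CPM in naïve and 163 and 164 CPM in primed cells at P5, and at 262 and 243 CPM against 202 and 226 CPM at P15. For both genes the states overlapped at P5 and did not at P15. The log2 fold changes of *mt-Nd4* were −0.10 (SE 0.06, edgeR adjusted p = 0.104) and −0.50 (SE 0.06, edgeR adjusted p = 1.37e-09), and those of *mt-Nd4l* were 0.06 (SE 0.06, edgeR adjusted p = 0.402) and −0.23 (SE 0.06, edgeR adjusted p = 0.00135). The P15 call of *mt-Nd4l* was lost without naïve P15 replicate 1 (−0.20) or primed P15 replicate 1 (−0.12), under library size scaling (−0.13) and under the replicate block (−0.23), while at P5 *mt-Nd4* was called without naïve P5 replicate 2 (−0.29) and *mt-Nd4l* without naïve P5 replicate 1 (0.20) or under library size scaling (0.26). In MEFs they were at 1119.7 and 133 CPM.

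*mt-Nd5* (chrM:11742-13565), the largest of these subunits, was at 1242 and 978 CPM in naïve and 1148 and 1235 CPM in primed cells at P5. By P15 it stood at 1767 and 1523 CPM in naïve and 1368 and 1529.5 CPM in primed cells, and in MEFs at 1136 CPM. The states overlapped at both passages. Its log2 fold change was 0.10 (SE 0.06, edgeR adjusted p = 0.0992) at P5, called higher without naïve P5 replicate 1 (0.26), under library size scaling (0.31) and under the replicate block (0.11), and −0.18 (SE 0.06, edgeR adjusted p = 0.0093) at P15, lost without naïve P15 replicate 1 (−0.10) or primed P15 replicate 1 (−0.07), under library size scaling (−0.07), in the fit of all 8 libraries (−0.18), under the replicate block (−0.18) and by DESeq2 (−0.19).

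*mt-Nd6* (chrM:13552-14070, minus strand) is the only protein-coding gene read from the other strand, and its mRNA is known for having little or no poly(A). It was at 323 and 258 CPM in naïve and 319 and 353 CPM in primed cells at P5, and at 554 and 502 CPM against 375 and 442 CPM at P15, with 470.2 CPM in MEFs. The states overlapped at P5 and not at P15. Its log2 fold change was 0.21 (SE 0.06, edgeR adjusted p = 0.00208) at P5, lost without naïve P5 replicate 2 (0.03) or primed P5 replicate 2 (0.16), without the low-count filter (0.20), in the fit of all 8 libraries (0.20) and by DESeq2 (0.21), and −0.36 (SE 0.06, edgeR adjusted p = 5.4e-06) at P15, where DESeq2 did not call it (−0.37). If strand was not marked, RNA opposite to *mt-Nd6* would count here as well.

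Complex III passes electrons to cytochrome c, and cytochrome b is its only mitochondrially encoded subunit. *mt-Cytb* (chrM:14145-15288) was at 1781 and 1375 CPM in naïve and 1296 and 1392 CPM in primed cells at P5. By P15 it stood at 3070.4 and 2794 CPM in naïve and 2148 and 2378 CPM in primed cells, and in MEFs at 1833 CPM. The states overlapped at P5, where the call (log2 fold change −0.23, SE 0.06, edgeR adjusted p = 0.00119) was lost without naïve P5 replicate 1 (−0.06), primed P5 replicate 1 (−0.15) or primed P5 replicate 2 (−0.25). It was also lost under library size scaling (−0.03), without the low-count filter (−0.24) and by DESeq2 (−0.23). They did not overlap at P15, where the change was −0.37 (SE 0.06, edgeR adjusted p = 3.98e-07).

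Complex IV, cytochrome c oxidase, reduces oxygen, and its 3 core subunits are encoded here. *mt-Co1* (chrM:5328-6872), which holds the site of oxygen reduction, was at 7184 and 5683 CPM in naïve and 7819.5 and 8186 CPM in primed cells at P5. The P15 libraries held 11226 and 10453 CPM in naïve and 8819 and 9488 CPM in primed cells, and in MEFs at 5079.6 CPM. The states did not overlap at either passage, but the order was opposite. The log2 fold change was 0.32 (SE 0.05, edgeR adjusted p = 4.37e-06) at P5, called with any library left out but not by DESeq2 or without the low-count filter (0.31 in both), and −0.24 (SE 0.05, edgeR adjusted p = 0.000111) at P15, lost without primed P15 replicate 1 (−0.16) and under library size scaling (−0.13).

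*mt-Co2* (chrM:7013-7696), whose copper site takes up electrons from cytochrome c, was at 1477 and 1147 CPM in naïve and 1304 and 1393 CPM in primed cells at P5, and both primed values lay between the naïve ones. At P15 it was at 2461 and 2261 CPM in naïve and 1583 and 1769 CPM in primed cells, and in MEFs at 1137 CPM. The log2 fold change was 0.04 (SE 0.06, edgeR adjusted p = 0.526) at P5, where it was called higher without naïve P5 replicate 1 (0.21) and under library size scaling (0.25) and lower without naïve P5 replicate 2 (−0.15), so that a single library decided its direction. At P15 it was −0.49 (SE 0.06, edgeR adjusted p = 1.35e-09).

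*mt-Co3* (chrM:8607-9390), the third core subunit, was at 1369 and 1236 CPM in naïve and 999.8 and 1052 CPM in primed cells at P5. At P15 it was at 1976 and 1886 CPM in naïve and 1229 and 1369.6 CPM in primed cells, and in MEFs at 1202 CPM. Primed cells were lower without overlap at both passages. The log2 fold changes were −0.34 (SE 0.04, edgeR adjusted p = 3.11e-09) and −0.57 (SE 0.06, edgeR adjusted p = 2.58e-11), called with any library left out.

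Complex V, the ATP synthase, has 2 mitochondrially encoded subunits. *mt-Atp6* (chrM:7927-8607), which forms part of the proton path, was at 1282 and 1181 CPM in naïve and 1033 and 1090.1 CPM in primed cells at P5, and at 1931 and 1869.8 CPM against 1436 and 1588 CPM at P15, with 1101 CPM in MEFs. Primed cells were lower without overlap at both passages. The log2 fold changes were −0.21 (SE 0.04, edgeR adjusted p = 6.11e-06), lost without primed P5 replicate 1 (−0.15) and under library size scaling (−0.01), and −0.33 (SE 0.05, edgeR adjusted p = 2.39e-06).

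*mt-Atp8* (chrM:7766-7969) lies upstream on the same mRNA as *mt-Atp6*, yet held only 106 to 200 counts in the naïve and primed libraries, where *mt-Atp6* held 19369 to 29465. It was at 5.79 and 7.14 CPM in naïve and 5.35 and 7.26 CPM in primed cells at P5, and at 12.4 and 12.3 CPM against 7.22 and 11.2 CPM at P15, with 21.4 CPM in MEFs. *mt-Atp6* held 142 to 222 times its counts in the mESC and mEpiSC libraries, against 51.4 times in MEFs. At P5 the states overlapped (log2 fold change −0.04, SE 0.17, edgeR adjusted p = 0.845), and at P15 primed cells were lower without passing the test (−0.42, SE 0.16, edgeR adjusted p = 0.0248). Without primed P15 replicate 2 the P15 difference was −0.75 and passed. Of its 204 bases, 43 are shared with *mt-Atp6*, and how the deposited counts treat reads over such a stretch is not given in the sources used here.

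Both rRNAs were lower in primed cells at both passages. *mt-Rnr1* (chrM:70-1024), of the small ribosomal subunit, was at 375 and 318 CPM in naïve and 165 and 188 CPM in primed cells at P5, and at 477 and 413 CPM against 123 and 144 CPM at P15. *mt-Rnr2* (chrM:1094-2675), of the large subunit, was at 494 and 405 CPM in naïve and 152 and 172 CPM in primed cells at P5, and at 525 and 448 CPM against 208 and 238 CPM at P15. The states did not overlap for either gene. The log2 fold changes of *mt-Rnr1* were −0.97 (SE 0.05, edgeR adjusted p = 9.16e-16) and −1.73 (SE 0.07, edgeR adjusted p = 1.99e-22), and those of *mt-Rnr2* were −1.47 (SE 0.06, edgeR adjusted p = 2.65e-19) and −1.12 (SE 0.07, edgeR adjusted p = 3.41e-17). The larger fall was thus of *mt-Rnr2* at P5 and of *mt-Rnr1* at P15. In MEFs the genes were at 130.0 and 572 CPM, and the ratio of *mt-Rnr2* to *mt-Rnr1* counts was 4.4 there against 0.914 to 1.69 in the other 8 libraries. How much of the rRNA is captured by poly(T) was not measured.

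Ratios within the mitochondrial counts do not depend on library scaling. The rRNAs held 34.1 ± 0.498 counts per 1000 counts of the 13 mRNAs (copies added) in naïve and 14.6 ± 0.577 in primed cells at P5, and 23.6 ± 0.955 and 12.2 ± 0.349 at P15 (SD, n = 2 each). *mt-Nd3* held 18.6 ± 1.96 and 7.39 ± 0.839 per 1000 at P5 and 15.8 ± 0.270 and 8.87 ± 0.545 at P15 (SD, n = 2 each). *mt-Co1* went the other way, at 31.7% ± 0.820 of the mRNA counts in naïve and 39.4% ± 0.121 in primed cells at P5 and 32.4% ± 0.145 and 35.6% ± 0.567 at P15 (SD, n = 2 each). In each of these ratios all 4 primed libraries lay on 1 side of all 4 naïve libraries. The exact permutation p was 0.0286 for each, two-sided and the smallest that 4 against 4 libraries can give, and 0.0571 after adjustment over the 8 ratios computed, above 0.05. The ratios were chosen after the data were seen, so these p-values describe the separation of the libraries and are not a test of it. The permutation also did not keep the passages apart. Without naïve P5 replicate 2, the exact permutation p of the *mt-Co1* difference was itself 0.0571, although all primed libraries still lay above the naïve ones left. tRNA counts were at 2.14 ± 0.200 per 1000 in naïve and 2.36 ± 0.103 in primed cells (SD, n = 4 each, exact permutation p = 0.0857). In MEFs the values were 33.3 for rRNA, 27.2 for *mt-Nd3* and 28.3% for *mt-Co1*, all closer to naïve than to primed cells.

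**Figure D5:**
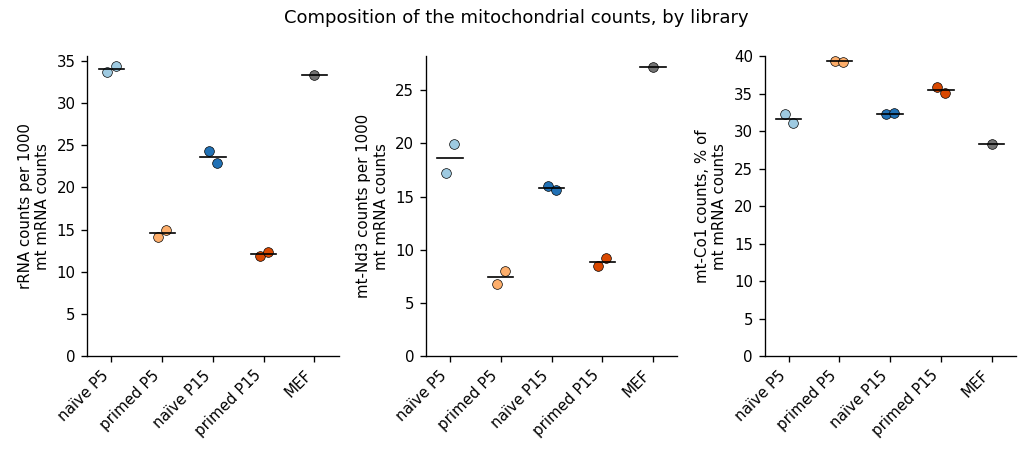
rRNA counts per 1000 mitochondrial mRNA counts (left), mt-Nd3 counts per 1000 (middle) and the percentage of mRNA counts in mt-Co1 (right) by group (x axis), 1 point per library with bars at the group mean. Primed libraries lie at 11.9 to 14.97 for rRNA and 6.80 to 9.25 for mt-Nd3, below all naïve libraries at 23.0 to 34.4 and 15.6 to 19.97, and at 35.2% to 39.4% for mt-Co1, above all naïve libraries at 31.1% to 32.5%.

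The 22 tRNA genes held few counts. Of these, 10 never exceeded 10 counts in a library, 1 (*mt-Tf*) had 0 counts in all 9 libraries, and 4 had 0 in all 8 naïve and primed libraries, which allows up to 3 counts in each for counting error alone. Only 7 of 22 could be tested at P5 and 8 at P15. The proline tRNA *mt-Tp*, the cysteine tRNA *mt-Tc* and the asparagine tRNA *mt-Tn*, all read from the minus strand, had the largest sums, and together held 86.7% to 94.0% of tRNA counts in the mESC and mEpiSC libraries, against 68.8% in MEFs. *mt-Tp* was at 32.5 and 27.5 CPM in naïve and 33.1 and 33.7 CPM in primed cells at P5 and at 47.6 and 50.3 CPM against 31.2 and 36.0 CPM at P15. It did not pass at P5 (log2 fold change 0.16, SE 0.08, edgeR adjusted p = 0.077), where it was called higher without naïve P5 replicate 1 (0.26) and under library size scaling (0.36), and was lower at P15 (−0.54, SE 0.09, edgeR adjusted p = 1.47e-06). *mt-Tc* was at 8.36 and 8.47 CPM against 8.17 and 9.51 CPM at P5 and 13.6 and 12.9 CPM against 14.0 and 15.4 CPM at P15, and *mt-Tn* at 8.65 and 6.40 CPM against 8.37 and 11.9 CPM and at 10.1 and 9.33 CPM against 9.55 and 12.3 CPM. Neither passed at either passage, but *mt-Tn* at P5 (0.42) was called higher without naïve P5 replicate 1 (0.63), without primed P5 replicate 1 (0.69) and under library size scaling (0.63).

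Leucine tRNA *mt-Tl1* was lower in primed cells at P5 (43 and 52 counts against 19 and 21, log2 fold change −1.13, SE 0.32, edgeR adjusted p = 0.0029), a call lost without naïve P5 replicate 2 (−1.01), primed P5 replicate 1 (−0.96) or primed P5 replicate 2 (−1.25), under library size scaling (−0.93) and by DESeq2 (−1.14). *mt-Tl2*, the other leucine tRNA, was lower at P15 (21 and 37 counts against 8 and 17, log2 fold change −1.47, SE 0.44, edgeR adjusted p = 0.00358), a call lost without naïve P15 replicate 2 (−1.15) or primed P15 replicate 1 (−1.01), under the replicate block (−1.48) and by DESeq2 (−1.48). It held 149 counts in the MEF library. Mature tRNAs lack the tail that poly(T) binds, and mature tRNA and longer transcripts, of either strand if strand was not marked, cannot be told apart in these counts.

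From P5 to P15 the mitochondrial mRNAs rose in both states. In naïve cells all 13 were higher at P15, where 4.21% of 15683 genes tested were called higher and 5.01% lower, with a median log2 fold change of 0.75 and a range of 0.53 (*mt-Nd3*) to 0.96 (*mt-Nd1*). The libraries of the passages overlapped for 0 of the 13, and did not overlap for 58.1% of all genes tested. All 13 were called whichever library was left out, against 3.18% to 4.52% of all genes called higher, while *mt-Nd5* lost its call by DESeq2 (0.57) and without the low-count filter (0.56), as did *mt-Nd2* (0.63) and *mt-Atp8* (0.92) without that filter. With a library left out, the median ranged from 0.59 (without naïve P5 replicate 2) to 0.85 (without naïve P5 replicate 1). In primed cells 12 were higher at P15 and 1 did not pass, where 24.3% of 15957 genes were called higher and 22.8% lower, with a median of 0.42 and a range of 0.20 (*mt-Co1*) to 0.76 (*mt-Cytb*). The libraries overlapped for 1 of the 13, *mt-Atp8*, and did not overlap for 77.8% of all genes tested. *mt-Atp8* was also the gene that did not pass (0.56, SE 0.18, edgeR adjusted p = 0.0108), and it passed without primed P5 replicate 2 (0.77) or primed P15 replicate 1 (0.85), without the low-count filter (0.58) and under the replicate block (0.55). By DESeq2 *mt-Nd3* (0.60), *mt-Nd5* (0.28) and *mt-Nd6* (0.28) did not pass. *mt-Co1* (0.15) and *mt-Nd6* (0.20) lost their calls without primed P5 replicate 1, and under library size scaling (0.07 and 0.16), which moved the median of all genes to −0.13. The summed fibroblast markers also rose from P5 to P15 in both states, as given above. The mitochondrial share of the 1 MEF library was 1.49%, and whether this library matches the inactivated feeder cells was not tested. The part of feeder RNA in the rise of the mRNAs was not tested either.

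The rRNAs did not follow the mRNAs between passages. *mt-Rnr1* was higher at P15 in naïve cells (log2 fold change 0.36, SE 0.07, edgeR adjusted p = 0.00481), which was lost without naïve P5 replicate 2 (0.24) or naïve P15 replicate 1 (0.25), without the low-count filter (0.35) and by DESeq2 (0.36). It was lower at P15 in primed cells (−0.39, SE 0.07, edgeR adjusted p = 1.29e-05), which DESeq2 did not call (−0.40). *mt-Rnr2* did not pass in naïve cells (0.11, SE 0.08, edgeR adjusted p = 0.399; 0.26 and called without naïve P5 replicate 1, 0.11 and called under the replicate block) and was higher in primed cells (0.47, SE 0.06, edgeR adjusted p = 3.22e-07). Of the tRNAs, *mt-Tp* (0.71) and *mt-Tc* (0.65) were higher at P15 in naïve cells, and *mt-Tc* (0.74) and *mt-Tl1* (1.57) in primed cells, as was *mt-Te* (2.10), named after its values were seen, with 12 and 2 counts at P5 and 28 and 29 at P15. The naïve call of *mt-Tc* was lost without naïve P15 replicate 1 (0.62) or replicate 2 (0.69), without the low-count filter (0.64) and by DESeq2 (0.66).

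By edgeR, the primed minus naïve difference was not the same at the passages for some of the genes. In a fit of the 8 libraries, the primed minus naïve difference was lower at P15 than at P5 for 5 of the 13 mRNAs, higher for 0 and did not pass for 8, against 10.8% of 16926 genes called lower and 13.3% called higher. *mt-Nd6* (−0.56, SE 0.10, edgeR adjusted p = 5.11e-05), *mt-Co1* (−0.54, SE 0.08, edgeR adjusted p = 2.49e-06) and *mt-Co2* (−0.52, SE 0.09, edgeR adjusted p = 4.45e-05) were called with any library left out. *mt-Nd1* (−0.48, SE 0.10, edgeR adjusted p = 0.000279) was lost without primed P15 replicate 1 (−0.37), and *mt-Nd4* (−0.38, SE 0.09, edgeR adjusted p = 0.00147) without naïve P5 replicate 2 (−0.20), primed P5 replicate 2 (−0.34), naïve P15 replicate 1 (−0.32) or primed P15 replicate 1 (−0.29). Without naïve P5 replicate 1, 10 mRNAs were called lower, against 9.40% of all genes. *mt-Nd3* did not pass (0.09, SE 0.11, edgeR adjusted p = 0.572). DESeq2's Wald test called 0 of the 13 mRNAs, with 5 at an unadjusted p under 0.05, against 8.23% of all genes called lower by it. Under library size scaling, which moved the median of all genes to −0.11, 10 were called lower, against 15.2% of all genes.

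Nuclear genes for the same complexes give a frame for these values. Of 75 nuclear subunits of complexes I, III, IV and V, 66 were lower in primed cells at P5, 0 were higher and 9 did not pass (median log2 fold change −0.43), against 31.1% of all genes called lower and 31.2% higher, and at P15 27 were lower, 6 were higher and 42 did not pass (median −0.11), against 28.4% and 28.2%. The 13 mitochondrial mRNAs had the medians −0.10 and −0.42 in the same fits, so the larger difference was at P5 for the nuclear list and at P15 for the mitochondrial one. From P5 to P15, 3 of the 75 were higher and 0 lower in naïve cells (median 0.05), where 4.21% of all genes were called higher, and 64 were higher and 0 lower in primed cells (median 0.40), where 24.3% were. These comparisons share libraries, and no difference between the lists was tested. The nuclear lists, here and below, were read from the main fit alone. Library size scaling moved the median of all genes to 0.21 at P5 and 0.10 at P15, and the nuclear lists were not read under it.

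By complex at P5, 30 of 37 complex I genes, 9 of 9 complex III genes, 11 of 13 complex IV genes and 16 of 16 complex V genes fell in primed cells, and 0 rose, beside the same 31.1% and 31.2% of all genes. At P15 the numbers lower were 9, 5, 5 and 8, and the numbers higher were 3, 0, 2 and 1, beside 28.4% of all genes lower and 28.2% higher. Complex II, which has no mitochondrially encoded subunit, had 4 of 4 genes lower at P5 and 0 of 4 called at P15. *Ndufv1*, which carries the NADH site of complex I, was at 123 ± 3.04 CPM in naïve and 72.9 ± 0.385 CPM in primed cells at P5 and at 125 ± 8.11 and 91.4 ± 4.71 CPM at P15 (SD, n = 2 each). Its log2 fold changes were −0.76 and −0.44. *Uqcrc1*, a core protein of complex III, changed by −0.90 and −0.44, *Cox7c* of complex IV by −0.73 and −0.62 and *Atp5b*, the catalytic subunit of ATP synthase, by −0.94 and −0.52, each called at both passages. Among the other genes with the smallest adjusted p of their lists were *Ndufs1* (−0.64), *Cyc1* (−0.77), *Cox7b* (−0.93), *Atp5a1* (−0.81), *Sdha* (−0.44) and *Sdhc* (−0.39) at P5 and *Ndufa7* (−0.46), *Uqcrq* (−0.39), *Cox7a1* (−1.25) and *Atp5g1* (−0.70) at P15. At P15 *Sdha* (−0.15) and *Sdhc* (−0.10) did not pass.

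Factors that transcribe, process and stabilise mitochondrial RNA were measured as well. At P5, 23 of 35 such genes were lower in primed cells and 1 was higher (median log2 fold change −0.44), against 31.1% of all genes called lower and 31.2% higher, and at P15 17 were lower and 1 was higher (median −0.34), against 28.4% and 28.2%. *Lrpprc*, which stabilises mitochondrial mRNAs, was at 139 ± 2.67 CPM in naïve and 65.7 ± 0.342 CPM in primed cells at P5 (SD, n = 2 each, log2 fold change −1.08, edgeR adjusted p = 1.35e-18). *Elac2*, which cuts the 3′ ends of tRNAs from the precursors, changed by −1.18 at P5 and −0.78 at P15. *Ptcd3*, a protein of the small mitochondrial ribosomal subunit, changed by −1.0 and −0.91. *Tbrg4* (*Fastkd4*), which acts on the stability of some mitochondrial mRNAs, changed by −1.04 and −0.57, and *Grsf1*, of the RNA granules in which transcripts are processed, by −0.61 at P15.

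Of 18 genes that copy and maintain mitochondrial DNA, 7 were lower and 3 were higher in primed cells at P5 (median −0.11), and 5 were lower and 4 were higher at P15 (median −0.07). These shares lie near those of all genes, of which 31.1% were lower and 31.2% higher at P5 and 28.4% lower and 28.2% higher at P15. *Slc25a36*, a pyrimidine nucleotide carrier, changed by −0.69 and −1.13, *Atad3a*, of the nucleoid, by −0.76 and −0.49, and *Mgme1*, a nuclease of mitochondrial DNA, by −0.57 at P15. *Slc25a4*, the adenine nucleotide carrier, changed by −0.29 at P5. *Tk2*, the mitochondrial thymidine kinase, was higher by 0.62 at P5 and *Dguok*, the deoxyguanosine kinase, by 0.52 at P15. Of 10 regulators of mitochondrial biogenesis, 5 were lower and 1 was higher at P5 (median −0.19), beside the same 31.1% and 31.2% of all genes. Of 9 tested at P15, 4 were lower and 1 was higher (median −0.19), beside 28.4% and 28.2%. Members of this list ranged from −3.14 to 4.49 at P5 and from −6.85 to 0.25 at P15. The lowest at both passages, named beyond the naming rule given below, was *Esrrb*, which the paper counts among known naïve marker genes.

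The MEF library, for which no test could be made, lay outside the range of the other libraries for a few genes, for some of them only just. Among the mRNAs and rRNAs, *mt-Atp8* (21.4 CPM) and *mt-Rnr2* (572 CPM) were higher there than in the 8 naïve and primed libraries, which reached 12.4 and 525 CPM. *mt-Co1* (5079.6 CPM), *mt-Co2* (1137 CPM) and *mt-Nd4l* (133 CPM) were lower, where the lowest of the 8 were at 5683, 1147 and 139.8 CPM. The naïve P5 replicates differed by a median of 1.26 times over the 13 mRNAs, so small gaps of 1 library need not belong to MEFs. Of the tRNAs, *mt-Tl2* was at 6.43 CPM against at most 2.35 CPM in the others. Higher too, and named after their values were seen, were *mt-Ts2* (1.90 CPM against at most 0.643) and *mt-Th* (1.42 CPM against at most 0.442). So were *mt-Tg*, *mt-Tr* and *mt-Tv*, with 14, 9 and 2 counts in MEFs and 0 in the 8 others. *mt-Tp* (17.9 CPM against at least 27.5) and *mt-Tn* (5.96 CPM against at least 6.40) were below the others. Only 3 tRNA genes had 0 counts in MEFs, against 7 to 10 in the mESC and mEpiSC libraries, and MEFs had the deepest of the 9 libraries.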

How the data were processed

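The values are raw counts per gene as deposited. The authors purified poly(A) RNA with poly(T) beads, made libraries with the NEBNext Ultra RNA kit, sequenced them on an Illumina HiSeq, trimmed reads with Cutadapt, aligned them with HISAT2 to mm10, keeping several alignments per read, and counted them with featureCounts on Ensembl genes. The annotation release and the treatment of strand, of overlapping genes and of reads with several alignments are not given in the sources used here. The table lists 54232 genes, and GENCODE M21 named 54079 of them. It also lists 92 spike-in entries, all at 0, which were not analysed. Total counts per library were 14378051 to 25646547, and shares of counts have Wilson 95% intervals that cover counting error only.

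Libraries were grouped by their deposited titles. R 4.3.3 with edgeR 4.0.16 and DESeq2 1.42.0 was used. Each comparison of 2 against 2 libraries was fitted over all genes with at least 10 counts in at least 2 libraries, with TMM scaling, edgeR's quasi-likelihood test and Benjamini-Hochberg adjustment over all genes tested, and genes below an adjusted p of 0.01 were called. The SE is the log2 fold change divided by the root of the F statistic. The biological coefficient of variation was 3.26% to 4.79%. Code was tested on simulated counts. Nuclear copies are genes outside the mitochondrial genome whose transcript aligned to a mitochondrial gene with at least 95% identity over at least 80% of the copy's length (BLAST).

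The text names all 13 mRNAs, both rRNAs, the 3 tRNAs with the most counts and those called between states, the 2 genes per respiratory complex and the 4 per list of RNA handling and of DNA maintenance with the smallest adjusted p between states, and copies with at least 1000 counts in a library. The members and gene lists were chosen with earlier results of these data known. The ratios within mitochondrial counts were chosen after the data were seen. The alternatives tried were library size alone, size factors from DESeq2, scaling without the 37 genes, a fit over 8 libraries, omission of the low-count filter, a replicate block, DESeq2's Wald test, added copies, other denominators of the share and each library left out. Calls for the lists of nuclear genes and of marker genes were read from the main fit alone. Deviations of libraries with the same replicate number correlated by −0.088 to 0.074, and the numbers were not taken to pair the libraries.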

Additional observations from a re-analysis of the deposited data

Results flagged for a closer look

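For 8 of the mitochondrial genes, the primed minus naïve difference at P15 was itself different from that at P5 in edgeR's test of the interaction term, at an adjusted p under 0.01. The mitochondrial genes tested were 13 mRNAs, 2 rRNAs and 9 tRNAs. Of all 16926 genes tested, 10.8% were called lower and 13.3% higher. The P15 effect was below the P5 effect for *mt-Rnr1* by a log2 value of −0.74, for *mt-Tp* by −0.68, for *mt-Nd6* by −0.56, for *mt-Co1* by −0.54, for *mt-Co2* by −0.52, for *mt-Nd1* by −0.48 and for *mt-Nd4* by −0.38. For *mt-Rnr2* it was above by 0.37, a call lost under library size scaling (0.25), under the replicate block and DESeq2's Wald test and in 5 of the 8 fits with a library left out. DESeq2's Wald test did not call the 5 mRNAs. The naïve libraries at P15 had the highest mitochondrial shares (3.0% and 2.80%) and summed fibroblast markers of 20.5% to 21.1% of the MEF level, the highest of the 4 groups. The part of either in these differences was not tested.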

How the results depend on the processing

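Between states at P5, the count of called mRNAs was 8 and fell to 4 without the low-count filter and to 3 by DESeq2's Wald test, and ranged from 4 to 10 with a library left out. Their median log2 fold change at P5 (−0.10) turned to 0.10 with library size alone and ranged from −0.29 to −0.021 with a library left out. *mt-Co2* at P5 was 0.21 without naïve P5 replicate 1 and turned to −0.15 without naïve P5 replicate 2. At P15 the median (−0.42) was −0.31 with library size alone and ranged from −0.55 to −0.27, and 9 to 13 mRNAs were called with a library left out. The primed median from P5 to P15 (0.42) was 0.29 with library size alone and ranged from 0.31 to 0.50. Of the 13 mRNAs, 5 differed in effect between passages, against 10 with library size alone, 9 without the low-count filter, 0 by DESeq2's Wald test and 3 to 10 with a library left out. The difference in mitochondrial share of −0.155 points ranged from −0.404 to 0.0681 with a library left out. The cause of these shifts was not tested. Under the replicate block 9 mRNAs were called at P5 and 10 at P15, 13 in each state between passages and 5 in the interaction. Of all genes, the block called 5109 lower and 5116 higher of 16482 at P5 and 3936 and 3892 of 15733 at P15. From P5 to P15 it called 1430 lower and 1353 higher of 15683 in naïve and 4032 and 4280 of 15957 in primed cells. In the interaction it called 1683 lower and 2055 higher of 16926. At P5 the main fit called 31.1% of all genes lower and 31.2% higher, and DESeq2's Wald test 25.3% and 24.1%. At P15 the main fit called 28.4% and 28.2%. With a library left out, the ratios of rRNA, *mt-Nd3* and *mt-Co1* kept their direction. Of the alternative values of the counts, medians and share, 106 were labelled the same, 14 moved and 2 changed sign. A count was labelled the same within a set ratio of the main count, whatever the direction of its calls. For a median the limit was the spread between replicates. The share was labelled by the side of a threshold on which its permutation p lay, so −0.404 against −0.155 points was the same. The label thus does not mean that the same genes were called. With 2 libraries a group, the spread is largely pooled over genes.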
